A study of Rattus norvegicus with 20 samples.

Results

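The AP-1 and immediate early genes described here were Jun, Junb, Jund, Fos, Fosb, Fosl2, Egr1, Ier2, Atf3 and Gadd45b, in rat whole blood. Probes were chosen by their gene name, or by the current RefSeq symbol of that name. This gave 11 probes for 9 of the 10 genes, out of 30367 probes on the array, and all 11 passed the filter on dim probes together with the probes of 15232 genes in all. Fosb was not analysed here. Egr1 and Fosl2 had 2 probes each, and the brighter probe stands for the gene unless the other is named.

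Blood was taken from 20 Wistar rats, 4 in each of 5 groups, and each rat had its own 1-colour Agilent array. Reflux esophagitis, an inflammation of the esophagus by refluxing stomach contents, was induced by surgery in 4 of the groups. Rats of the first group received omeprazole, a proton pump inhibitor that lowers gastric acid, at 30 mg/kg. Rats of the second and the third group received STW5, a liquid preparation of medicinal plant extracts, at 0.5 ml/kg and at 2 ml/kg. These 3 treatments began 7 days before surgery and went on for 10 days after it, when the rats were killed. Rats of the fourth group had esophagitis and stayed untreated, and those of the fifth had a sham operation. Neither an age nor a vehicle for the untreated and sham rats is given in the labels. All 4 esophagitis groups, called operated groups below, share the induction of reflux, and the esophageal tissue that the study also took was not analysed here.

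AP-1 is a dimer of a Jun protein (Jun, Junb or Jund) with another Jun protein, a Fos protein (Fos, Fosb, Fosl2) or an ATF protein such as Atf3, and it binds short DNA sites to switch genes on or off. Its genes, with Egr1, Ier2 and Gadd45b, belong to the immediate early or primary response genes, which cells transcribe soon after a stimulus without first making new protein, through MAP kinases, serum response factor, CREB and NF-kB. In blood leukocytes they are known to respond to cytokines, microbial products, adhesion and stress, and also to the handling of the cells after bleeding. The blood was drawn straight into tubes that stabilise RNA and frozen, per the labels.

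A level below is the log2 ratio of a probe's processed intensity to the 75th percentile of intensities on its array, so that 0 is a signal equal to that percentile. That percentile was 96.0 to 225 on omeprazole arrays, 152 to 308 and 71.3 to 163 on arrays of the lower and the higher STW5 dose, 124 to 266 on untreated arrays and 97.8 to 173 on sham arrays. Untreated and sham arrays shared slide 1, both STW5 doses slide 2, and omeprazole had slide 3 to itself, so that slide and treatment cannot be told apart where a treated group is set against untreated or sham rats. Untreated array 1 resembled the sham arrays more than the other untreated arrays did. Across the tested genes it correlated at a mean of 0.984 with the sham arrays and of 0.920 with the other untreated arrays. Untreated arrays 2, 3 and 4 correlated at a mean of 0.928, 0.905 and 0.936 with sham. With the others of their own group they correlated at 0.910, 0.910 and 0.938, so the whole group was scattered. Results that rest on the untreated group are also given without untreated array 1. That array was singled out by its likeness to sham, so leaving it out widens the difference from sham by the choice itself. The adjusted p without it are therefore descriptive only. Untreated array 2 had the highest neutrophil marker score of all arrays, 1.74, and the lowest T cell score, -2.80, where a score is the mean over the listed markers of level minus the marker's mean over all arrays. For the 2 STW5 doses the array titles and the group numbers in the study design disagree, and the 8 STW5 columns of the authors' deposited value table follow the arrays of the other dose. The titles were followed, and results that turn on the dose are also given with the doses exchanged. Of the blood cell markers, 11 of 12 neutrophil, 8 of 9 monocyte, 8 of 9 T cell, 4 of 8 B cell, all 6 tested erythroid and all 7 tested platelet markers were well above background on every array. Of 6 epithelial markers 2 were well above background on every array too, and Krt13 and Epcam were on 0 arrays.

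The probes that measured Jun, Gadd45b, Ier2 and Fosl2 are shown because the results turn on them, Fosl2 with both probes because they gave different values. Each is 60 bases long and is printed as in the scanner files, which place the Jun probe at chr5:115359410-115359469 (minus strand), the Gadd45b probe in part at chr7:10289049-10289076 (minus strand) and the Ier2 probe at chr19:25160648-25160707 (plus strand), on the rn4 build. The files give the Fosl2 probes no position.
Jun probe: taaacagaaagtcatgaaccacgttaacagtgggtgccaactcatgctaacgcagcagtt
Gadd45b probe: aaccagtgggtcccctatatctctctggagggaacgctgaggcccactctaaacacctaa
Ier2 probe: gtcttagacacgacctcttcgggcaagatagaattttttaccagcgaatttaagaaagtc
Fosl2 probe, brighter: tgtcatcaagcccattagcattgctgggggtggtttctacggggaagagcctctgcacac
Fosl2 probe, dimmer: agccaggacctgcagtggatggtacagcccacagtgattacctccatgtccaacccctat

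Promoters from RefSeq (GRCr8, 250 bases before to 50 bases after a start site) were matched for 7 of the 10 genes, Junb, Jund, Fosb, Fosl2, Egr1, Ier2 and Gadd45b. For Fosb and Gadd45b the window lay wholly inside the gene as RefSeq places it. The bases before the outer end of these genes were therefore not searched. They were searched on both strands for the AP-1 site TGANTCA, the CREB and ATF site TGACGTCA, the CArG box bound by serum response factor, and the NF-kB consensus. The CREB and ATF site, held by 1.83% of the 33469 promoters in the table, was found in Jund (bases -221 to -214 from the start) and in Ier2 (bases -66 to -59). The CArG box, held by 1.64% of all promoters, was found at 2 places in Egr1, bases -105 to -96 and -83 to -74. The AP-1 site (7.33% of all promoters) and the NF-kB consensus (4.18%) had no match in these 7 windows. The promoters with a match are shown with the matched bases in capitals, for Ier2 at chr19:40399123-40399422 (plus strand), Jund at chr16:18769722-18770021 (minus strand) and Egr1 at chr18:26736828-26737127 (plus strand).
Ier2 promoter: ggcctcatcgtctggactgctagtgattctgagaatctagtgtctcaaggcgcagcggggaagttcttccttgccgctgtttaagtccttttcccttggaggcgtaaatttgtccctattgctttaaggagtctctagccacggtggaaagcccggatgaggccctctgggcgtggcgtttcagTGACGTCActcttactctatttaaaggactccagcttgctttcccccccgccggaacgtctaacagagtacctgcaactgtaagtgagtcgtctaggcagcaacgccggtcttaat
Jund promoter: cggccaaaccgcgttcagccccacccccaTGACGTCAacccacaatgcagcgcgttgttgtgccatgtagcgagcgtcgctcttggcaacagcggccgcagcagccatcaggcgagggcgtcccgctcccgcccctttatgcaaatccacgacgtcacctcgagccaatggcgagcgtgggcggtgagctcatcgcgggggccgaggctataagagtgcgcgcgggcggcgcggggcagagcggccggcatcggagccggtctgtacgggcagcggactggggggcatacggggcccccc
Egr1 promoter: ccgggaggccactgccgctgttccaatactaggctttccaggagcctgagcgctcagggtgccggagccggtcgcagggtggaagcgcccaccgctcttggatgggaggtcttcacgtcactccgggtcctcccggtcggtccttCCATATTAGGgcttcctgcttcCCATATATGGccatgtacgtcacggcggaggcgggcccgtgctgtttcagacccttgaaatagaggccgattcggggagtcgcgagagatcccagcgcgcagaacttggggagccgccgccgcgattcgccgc
A match describes the letters in the window only. Ier2 and Jund hold the same site and had unlike patterns across the groups, as described below, and a role of the site was not tested.

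Jun, Junb, Fosl2, Atf3, Ier2 and Gadd45b had higher mean levels in each of the 4 operated groups than in sham rats, by 0.29 to 2.28 on the log2 scale. Egr1 by its brighter probe had lower means in the 3 treated groups, and Jund and Fos had no common direction. Of the 9 genes measured, Fosl2 was the only one past the threshold in any comparison by its brighter probe, and it rose in omeprazole-treated rats over sham. In bulk blood fewer cells of a type and less RNA per cell cannot be told apart, and this holds for every level below. The map of levels by array shows how evenly each gene moved within a group.

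**Figure D1:**
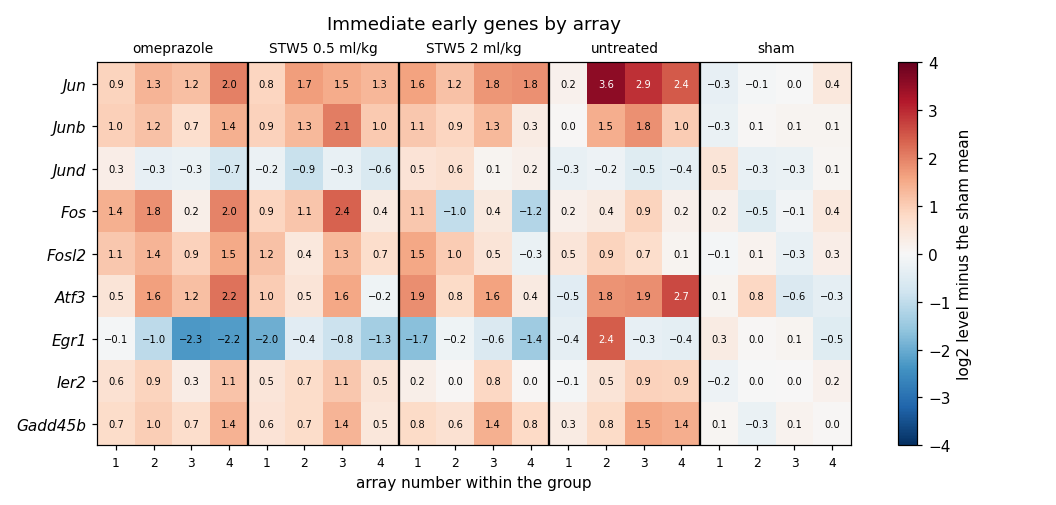
Each cell gives the log2 level of 1 gene (down the page) on 1 array (across), minus that gene's mean over the 4 sham arrays. Red is above and blue below the sham mean. Untreated array 1 sits near the sham arrays for most genes, while Jun and Gadd45b are red on nearly all other operated arrays.

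Jun, the founding AP-1 subunit and the target of the JNK kinases, had levels of -0.30, 0.16, 0.02 and 0.82 on omeprazole arrays. Its levels were -0.33, 0.50, 0.31 and 0.14 at STW5 0.5 ml/kg, 0.42, 0.00, 0.60 and 0.64 at STW5 2 ml/kg, -1.01, 2.41, 1.74 and 1.26 in untreated rats, and -1.51, -1.26, -1.19 and -0.76 in sham rats. All 12 treated arrays and 3 of 4 untreated arrays were thus above every sham array, and untreated array 1 was inside the sham range. Untreated arrays 2 to 4 held the highest Jun levels of the study, above all treated arrays. The change against sham was 1.36 ± 0.48 for omeprazole, 1.34 ± 0.48 and 1.60 ± 0.48 for the lower and the higher STW5 dose and 2.28 ± 0.48 (4.86-fold) for untreated rats (log2 ± SE, n = 4 each), with limma adjusted p of 0.135, 0.368, 0.219 and 0.242. Without untreated array 1 the untreated change was 2.98 with an adjusted p of 0.000242.

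Junb, an AP-1 subunit that can also restrain Jun, had levels of 3.17, 3.38, 2.90 and 3.64 on omeprazole arrays and 2.26, 3.67, 4.04 and 3.22 on untreated arrays, against 1.94, 2.27, 2.31 and 2.34 on sham arrays. At STW5 0.5 ml/kg it ranged from 3.14 to 4.27, and at 2 ml/kg from 2.53 to 3.50. Here too 15 of 16 operated arrays were above all sham arrays, and the exception was untreated array 1. The changes against sham were 1.06 ± 0.34 for omeprazole, 1.32 ± 0.34 and 0.88 ± 0.34 for the lower and higher STW5 dose, and 1.08 ± 0.34 for untreated rats (log2 ± SE, limma adjusted p of 0.0822, 0.283, 0.302 and 0.242). Without untreated array 1 the untreated change was 1.43 with an adjusted p of 0.0127.

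Jund, the Jun family member known for steady rather than transient expression, did not follow Jun and Junb. It had levels of 7.12, 7.20, 6.67 and 6.76 at STW5 2 ml/kg, 6.26, 6.36, 6.10 and 6.19 in untreated rats, and 7.08, 6.27, 6.30 and 6.64 in sham rats. The omeprazole range was 5.88 to 6.83 and that of STW5 0.5 ml/kg 5.69 to 6.34. Only 2 of 16 operated arrays were above all sham arrays and 7 were below them all. No change of Jund against sham passed the threshold, and the 4 changes ran from -0.51 (STW5 0.5 ml/kg) to 0.37 (STW5 2 ml/kg), with SE 0.24. With arrays scaled to the spike-in controls the changes of omeprazole, STW5 0.5 ml/kg and untreated rats were positive instead of negative, at 0.34, 0.36 and 0.25. That of STW5 2 ml/kg was -0.02. In the same order, the median of all genes under this scaling was 0.52, 0.72, 0.40 and -0.34.

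Fos, the short-lived partner of Jun, was dim and scattered. Its levels were -1.19, -0.80, -2.39 and -0.63 on omeprazole arrays and -1.77, -1.52, -0.26 and -2.26 at STW5 0.5 ml/kg. They were -1.54, -3.62, -2.21 and -3.81 at STW5 2 ml/kg, with arrays 2 and 4 not well above background, -2.43, -2.27, -1.72 and -2.41 in untreated rats, and -2.41, -3.10, -2.76 and -2.21 in sham rats. In the omeprazole group 3 of 4 arrays were above all sham arrays and the fourth was not, and the untreated and sham groups overlapped. The change against sham was 1.37 ± 0.49 for omeprazole, 1.17 ± 0.49 for STW5 0.5 ml/kg, -0.18 ± 0.49 for STW5 2 ml/kg and 0.41 ± 0.49 for untreated rats (adjusted p of 0.140, 0.401, 0.905 and 0.602).

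Fosl2, the Fos family member also called Fra-2, was the called gene. By the brighter probe its levels were -0.73, -0.42, -0.88 and -0.29 in omeprazole-treated rats, against -1.88, -1.65, -2.10 and -1.54 in sham rats. The groups did not overlap, and Fosl2 rose by 1.21 ± 0.32 (log2 ± SE, 2.32-fold, limma adjusted p = 0.0291). The call is narrow: the adjusted p was 0.0505 to 0.116 without sham array 1, 2 or 3 or omeprazole array 2 or 4, and 0.0674 with no filter on dim probes. The dimmer probe read -1.88, -1.51, -2.28 and -1.35 in omeprazole-treated rats and -2.65, -2.87, -2.85 and -1.18 in sham rats. By that probe the groups overlapped through sham array 4, and the change was 0.63 ± 0.37 with an adjusted p of 0.529 in the fit over probes. With the mean of both probes it was 0.92, with an adjusted p of 0.109. The brighter probe had changes of 0.90 and 0.70 against sham for the lower and the higher STW5 dose (SE 0.32, adjusted p of 0.358 and 0.368). For untreated rats against sham the brighter probe gave 0.55 and the dimmer probe -0.65, so the 2 probes differed in direction there.

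Atf3, a stress-induced partner that often represses, had levels of -2.09, -0.98, -1.41 and -0.44 on omeprazole arrays, -3.07, -0.81, -0.75 and 0.03 on untreated arrays, and -2.52, -1.80, -3.20 and -2.97 on sham arrays. It ranged from -2.79 to -1.06 at STW5 0.5 ml/kg and from -2.27 to -0.76 at 2 ml/kg. The spread was wide and 10 of 16 operated arrays were above all sham arrays. The changes against sham were 1.39 ± 0.56 for omeprazole, 0.73 ± 0.56 and 1.15 ± 0.56 for the lower and higher STW5 dose and 1.47 ± 0.56 for untreated rats (adjusted p of 0.209, 0.543, 0.413 and 0.247). Without untreated array 1 the untreated change was 2.11 with an adjusted p of 0.0158.

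Egr1, a zinc finger factor induced through serum response factor, had lower means in the treated groups than in sham rats, by amounts that differed between its probes. By the brighter probe its levels were -2.98, -3.94, -5.21 and -5.14 on omeprazole arrays, none of them well above background. They were -4.87, -3.35, -3.75 and -4.25 at STW5 0.5 ml/kg, -4.58, -3.09, -3.47 and -4.33 at STW5 2 ml/kg, -3.26, -0.47, -3.25 and -3.31 in untreated rats, and -2.59, -2.86, -2.79 and -3.39 in sham rats. The brighter probe was well above background on 2 of 4 arrays at STW5 0.5 ml/kg and on 1 of 4 at STW5 2 ml/kg. It was so on 3 of 4 arrays in the untreated and in the sham group. The size of the Egr1 changes at both STW5 doses is therefore uncertain. Untreated array 2 stood far above the other 19 arrays, and 9 of 16 operated arrays were below every sham array. Where 0 of a group's 4 arrays had a probe well above background, the level there is only a bound. The fold is then a minimum, computed against the lowest signal called well above background or the probe's own signal, whichever was higher on each array. By the dimmer probe Egr1 fell in omeprazole-treated against untreated rats, to levels of -3.91, -4.43, -5.51 and -4.94 against -4.20, -0.52, -2.44 and -2.55. This was at least 3.59-fold lower (adjusted p = 0.0214 in the fit over probes), and the adjusted p was 0.0652 to 0.0891 without omeprazole array 3 or 4 or untreated array 2. By the brighter probe Egr1 was at least 2.76-fold lower, with an adjusted p of 0.128. Against sham, Egr1 by the brighter probe was at least 2.19-fold lower under omeprazole, with an adjusted p of 0.245 in the fit over probes. The changes by that probe were -1.15 and -0.96 for the lower and higher STW5 dose and 0.33 for untreated rats (SE 0.59, limma adjusted p of 0.448, 0.519 and 0.732), and the untreated change was -0.37 without untreated array 2. The dimmer probe gave -0.17 for STW5 0.5 ml/kg and 0.88 for untreated rats (SE 0.56, adjusted p of 0.907 and 0.349 in the fit over probes). It was at least 1.96-fold lower under omeprazole and at least 1.30-fold lower at STW5 2 ml/kg than in sham rats (adjusted p of 0.219 and 0.653).

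Ier2, a nuclear protein of the fast primary response, had levels of 3.91, 4.19, 3.59 and 4.44 on omeprazole arrays, 3.23, 3.82, 4.21 and 4.19 on untreated arrays, and 3.12, 3.29, 3.34 and 3.48 on sham arrays. It ranged from 3.79 to 4.40 at STW5 0.5 ml/kg and from 3.35 to 4.14 at 2 ml/kg. Of the operated arrays 13 of 16 were above all sham arrays, a count that 3.68% of all genes reached, the others being untreated array 1 and STW5 2 ml/kg arrays 2 and 4. The changes against sham were 0.73 for omeprazole, 0.70 and 0.29 for the lower and higher STW5 dose, and 0.56 for untreated rats (SE 0.26, adjusted p of 0.138, 0.369, 0.671 and 0.271).

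Gadd45b, a stress sensor that acts on the p38 and JNK kinase pathways, separated operated from sham rats most completely of the members, while the operated groups overlapped. Its levels were 1.54, 1.78, 1.52 and 2.18 on omeprazole arrays, 1.36, 1.55, 2.16 and 1.27 at STW5 0.5 ml/kg, 1.57, 1.42, 2.23 and 1.59 at STW5 2 ml/kg, 1.12, 1.57, 2.35 and 2.25 in untreated rats, and 0.90, 0.55, 0.94 and 0.84 in sham rats. All 16 operated arrays were above all 4 sham arrays. Over all genes 0.0985% showed this, and 0.702% had at least 15 of 16 operated arrays above all sham arrays, as Jun, Junb and Gadd45b did. The changes against sham were 0.95 for omeprazole, 0.78 and 0.90 for the lower and higher STW5 dose and 1.02 for untreated rats (adjusted p of 0.0652, 0.369, 0.236 and 0.242). None passed the threshold, although the untreated change was 1.25 with an adjusted p of 0.0158 without untreated array 1.

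**Figure D2:**
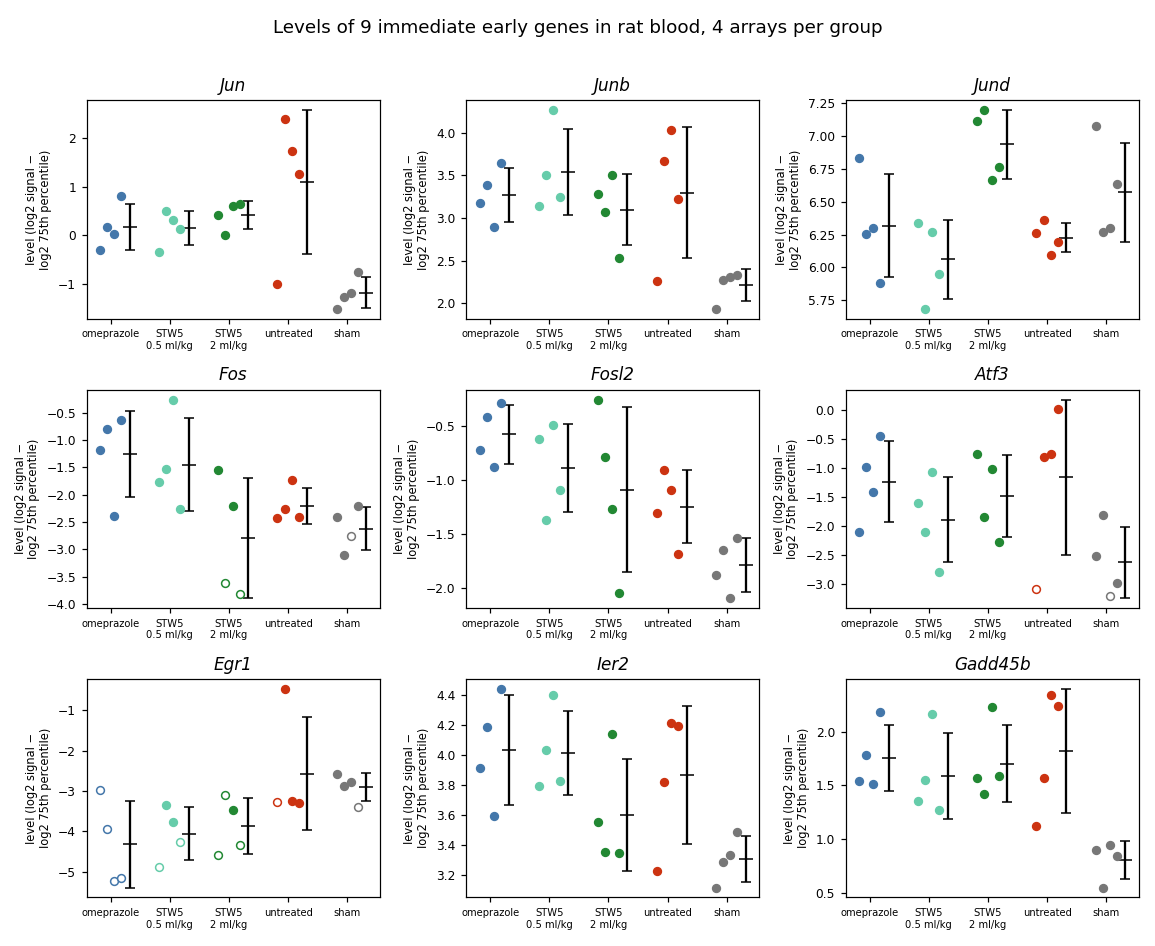
Each panel shows the level of 1 gene (log2 ratio of intensity to the 75th percentile of its array) on 4 arrays for each of the 5 groups, with black bars for mean ± SD. Open points are not well above background. Gadd45b lies above all sham arrays on all 16 operated arrays, and Jun and Junb on 15, untreated array 1 being the exception.

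In untreated rats against sham, 8 of the 9 genes had a higher mean, with a median change of 0.56 against -0.19 over all 15232 genes. Of the members 0 passed the threshold by limma, where 0.00657% of all genes (1 gene) did. At an unadjusted p below 0.05 the members numbered 5 (Jun, Junb, Ier2, Atf3 and Gadd45b), against 18.2% of all genes. Gadd45b was the 1 member with all untreated arrays above all sham arrays, as were 1.49% of all genes, and 0 members had all untreated arrays below, against 1.65%. With any single array other than untreated array 1 left out, 0 members passed. Without untreated array 1, which was picked for its likeness to sham, Jun, Junb, Atf3 and Gadd45b rose (4 members), where 11.6% of all genes passed and 5.76% rose. The changes of Ier2, Fosl2, Egr1, Fos and Jund were then 0.77, 0.56, 0.56, 0.49 and -0.35, with limma adjusted p of 0.0535, 0.237, 0.524, 0.520 and 0.329. Without untreated arrays 1 and 2, an alternative chosen after seeing the data, Ier2 also passed (5 members), where 28.5% of all genes did. Neutrophil marker scores were -0.93, 1.74, -0.24 and -0.20 on untreated arrays and -1.38 to -0.61 on sham arrays, with 11 of the 12 markers well above background throughout. Arrays 3 and 4 of the untreated group also had a higher 75th percentile, 266 and 222, than any sham array. B cell scores were 0.71, -2.27, 0.44 and -0.43 on untreated arrays and 0.52 to 0.87 on sham arrays. Erythroid scores were 0.46, 0.14, -1.72 and -1.26 on untreated arrays and 0.24 to 0.96 on sham arrays. The part of cell makeup and of signal in these changes was not tested.

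In omeprazole-treated rats against sham, 7 of the 9 genes had a higher mean, with a median change of 1.06 against -0.08 over all genes. The 1 member called, Fosl2, stands beside 4.74% of all genes called and 0.742% called higher. Of the members 8 had an unadjusted p below 0.05, against 14.3% of all genes. Jun, Junb, Fosl2, Ier2 and Gadd45b (5 members) had all omeprazole arrays above all sham arrays, against 6.84% of all genes, and 0 members had all of them below, against 8.52%. Neutrophil scores of the omeprazole arrays were -0.31 to 1.00, all above those of sham, -1.38 to -0.61. B cell scores were -0.08 to 0.55, against 0.52 to 0.87 in sham rats, and the part of either in these changes was not tested.

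At STW5 0.5 ml/kg against sham, 7 of the 9 genes had a higher mean, with a median change of 0.78 against -0.16 over all genes. The lower dose had 0 members past the threshold by limma, as it had 0 genes (0%) in all. At an unadjusted p below 0.05 it had 7 members, against 11.6% of all genes. Jun, Junb, Fosl2, Ier2 and Gadd45b (5 members) had all arrays of this dose above all sham arrays, against 5.88% of all genes, and 0 members had all of them below, against 4.45%. At 2 ml/kg the median change was 0.70 against 0.04, 0 members and 0 genes (0%) passed, and 4 members had an unadjusted p below 0.05, against 12.4% of all genes. Jun, Junb and Gadd45b (3 members) had all arrays of this dose above all sham arrays, against 4.38% of all genes, and 0 had all of them below, against 3.25%. Neutrophil scores were 0.05 to 0.93 at 0.5 ml/kg and -1.18 to 0.52 at 2 ml/kg, against -1.38 to -0.61 in sham rats. B cell scores were -0.64 to 0.12 at 0.5 ml/kg and -0.85 to 0.38 at 2 ml/kg, all below the 0.52 to 0.87 of sham rats. The part of cell makeup and of signal in these changes was not tested. The 4 comparisons with sham share the same sham arrays and are therefore not independent of each other.

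**Figure D3:**
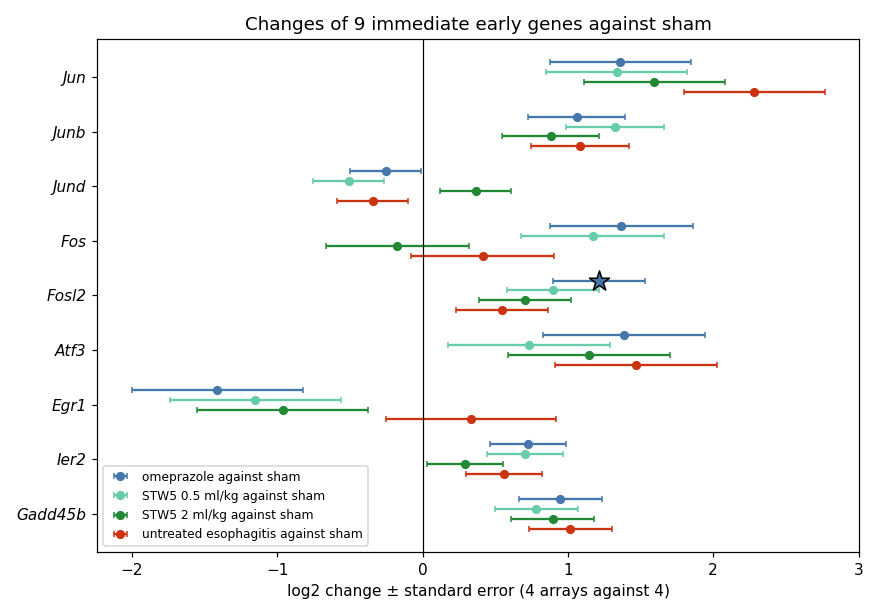
Points give the log2 change of each gene against sham for omeprazole, STW5 at 0.5 and 2 ml/kg and untreated esophagitis, and bars the standard error from limma. The star marks the 1 change past the threshold, Fosl2 under omeprazole at 1.21, and the point of Egr1 under omeprazole rests on levels not well above background. Jun, Junb, Fosl2, Atf3, Ier2 and Gadd45b lie right of 0 in all 4 comparisons.

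**Figure D4:**
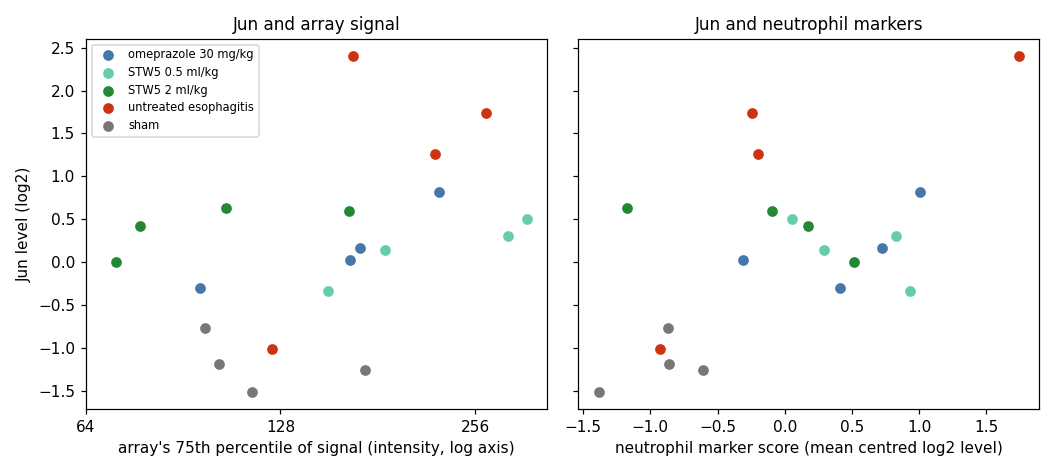
Each point is 1 array, with its Jun level (log2) on the vertical axis, against the array's 75th percentile of signal on a log axis (left) and against its neutrophil marker score (right). The 4 sham arrays and untreated array 1 lie lowest in both panels, and the other operated arrays lie above them. In signal these other arrays overlap the sham arrays. Sham neutrophil scores are -1.38 to -0.61, and of the other operated arrays only STW5 2 ml/kg array 4 (-1.18) lies in that range. The part of signal and of neutrophils in the Jun level was not tested.

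Against untreated rats, the treated groups showed no called change of these 9 genes by the brighter probes. For omeprazole 0 members passed by limma, where 4.18% of all genes did and 3.83% were lower, and 2 (Fosl2 and Egr1) had an unadjusted p below 0.05, against 15.5%. Fosl2 had levels of -0.73, -0.42, -0.88 and -0.29 in omeprazole-treated rats, all above the -1.30, -0.91, -1.09 and -1.69 of untreated rats, as did 2.31% of all genes, and 0 members had all omeprazole arrays below, against 4.96%. Its change was 0.67 ± 0.32 by the brighter probe (adjusted p = 0.315) and 1.28 ± 0.37 by the dimmer one (adjusted p = 0.0602 in the fit over probes). At STW5 0.5 ml/kg 0 members and 0 genes (0%) passed by limma, and Egr1 alone had an unadjusted p below 0.05, against 5.95% of all genes. All its 4 levels at that dose lay below all untreated levels, as did those of 1.21% of all genes (0 members lay wholly above, against 0.683%), with a change of -1.49 ± 0.59 and an adjusted p of 0.700. By its dimmer probe these groups overlapped, at -4.25 to -2.86 against -4.20 to -0.52. At STW5 2 ml/kg 0 members and 0 genes (0%) passed by limma, and 2 members (Jund and Egr1) had an unadjusted p below 0.05, against 23.5% of all genes. With arrays paired by replicate number, 0 members and 3.38% of all genes passed in this comparison.

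Jund was higher at STW5 2 ml/kg than in untreated rats on all 4 arrays, as were 3.34% of all genes, by 0.71 ± 0.24 (adjusted p = 0.112). Egr1 differed by -1.30 ± 0.59 there (adjusted p = 0.189). With the doses exchanged the Jund change was -0.17. With spike-in scaling the median of all genes was -0.84, in place of 0.14. Under it 1918 genes (12.6%) passed, 7 of them higher. The Jund change was then -0.27, and Egr1 fell by 2.27 (limma adjusted p = 0.0484). The Egr1 probe was well above background on 1 of 4 arrays at that dose. This call was not repeated without untreated array 2, which held the highest Egr1 level.

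The change of Jun against untreated rats was -0.92 ± 0.48 for omeprazole, -0.95 ± 0.48 for STW5 0.5 ml/kg and -0.69 ± 0.48 for STW5 2 ml/kg, with limma adjusted p of 0.370, 0.878 and 0.405. Here untreated array 1 decided the call. Without it Jun fell by 1.62 in omeprazole-treated rats (adjusted p = 0.00255, where 7.49% of all genes passed and 2.07% were higher). At STW5 2 ml/kg Jun fell by 1.39 (adjusted p = 0.0162, where 19.8% passed and 16.2% were higher). At STW5 0.5 ml/kg the change was then -1.65 with an adjusted p of 0.0688. Exchanging the doses swaps the results of the 2 STW5 groups. For the other changes named against untreated rats, leaving out that array gave 0.65 for Fosl2 under omeprazole (adjusted p = 0.236) and 0.72 for Jund at STW5 2 ml/kg (adjusted p = 0.0628). For Egr1 it gave -1.72 at STW5 0.5 ml/kg and -1.53 at STW5 2 ml/kg, with limma adjusted p of 0.265 and 0.0969, and an adjusted p of 0.0627 under omeprazole, where the level is only a bound. Without untreated array 2 the Egr1 changes were smaller, -0.79 and -0.60 at the lower and higher STW5 dose (adjusted p of 0.775 and 0.411). The fitted Egr1 difference under omeprazole was then -1.05, against -1.75 with all arrays (adjusted p = 0.278).

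Between the STW5 doses, 2 against 0.5 ml/kg, 0 members and 0 genes (0%) passed by limma. Of the members 2 (Jund and Fos) had an unadjusted p below 0.05, against 26.6% of all genes. Jund was higher at 2 ml/kg on all 4 arrays, as were 7.35% of all genes (0 members were wholly lower, against 3.83%), by 0.87 ± 0.24 (adjusted p = 0.0768). Fos had a change of -1.34 ± 0.49 (adjusted p = 0.117), with arrays 2 and 4 at 2 ml/kg not well above background. Jun differed by 0.26 ± 0.48 (adjusted p = 0.755). Exchanging the doses turns the sign of each of these changes. With spike-in scaling, under which the median of all genes was -1.08 in place of 0.18, Jund differed by -0.38 and Fos fell by 2.60 (adjusted p = 0.00778).

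The other genes of the system were taken from 4 lists chosen with earlier results of these data known. The genes named from each list for untreated rats against sham were those with the smallest p in that same comparison. Their values without untreated array 1 are therefore descriptive only. In that fit 11.6% of all genes passed and 5.76% rose. Of the other bZIP partners of AP-1, such as Maf and Creb1, 18 of 19 were tested and 0 passed in any of the 8 comparisons. For untreated rats against sham 14 had a higher and 4 a lower mean, where 38.1% of all genes were higher. The median change of these 18 was 0.31. The 3 with the smallest p were Maf, Jdp2 and Creb1. Maf, a bZIP factor of macrophages, had levels of -3.30, 0.47, -1.87 and 0.56 in untreated rats and -3.94, -3.24, -2.91 and -3.96 in sham rats, a change of 2.48 ± 0.67. It was well above background on 3 of 4 untreated arrays and 2 of 4 sham arrays. Jdp2, a repressor that pairs with Jun, was not well above background on any sham array and was at least 1.48-fold higher in untreated rats. Creb1, which binds the CREB and ATF site, differed by 0.54 ± 0.24. Their limma adjusted p were 0.242, 0.247 and 0.266. Maf rose by 3.23 without untreated array 1 (adjusted p = 0.00519), and the adjusted p of Jdp2 and Creb1 were 0.0653 and 0.0802.

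Of 55 other immediate early and primary response genes 40 were tested. For untreated rats against sham 31 of the 40 were higher, where 38.1% of all genes were, with a median of 0.37. The 3 with the smallest p there were Rhob (1.67 ± 0.46), a small GTPase, Socs3 (1.17 ± 0.32), a brake on cytokine signalling, and Id1 (2.08 ± 0.60), an inhibitor of helix-loop-helix factors, all with an adjusted p of 0.242. Id1 was well above background on 3 of 4 untreated arrays and 1 of 4 sham arrays. Without untreated array 1 Rhob, Socs3 and Id1 rose by 2.25, 1.51 and 2.82 (adjusted p of 0.00328, 0.00819 and 0.00362). In that fit 11.6% of all genes passed and 5.76% rose. In omeprazole-treated rats against sham 4 of the 40 rose and 0 fell, where 4.74% of all genes passed and 0.742% rose. Il1b, the cytokine interleukin 1 beta, was at 4.28, 4.84, 3.95 and 5.15 under omeprazole and 2.87, 2.92, 3.14 and 3.33 in sham rats, and rose by 1.49 ± 0.36 (adjusted p = 0.0193). Ier5, a primary response gene, rose by 1.27 ± 0.34 (adjusted p = 0.0333). Klf6, a zinc finger factor, rose by 1.18 ± 0.33 (adjusted p = 0.0471), and Rgs2, a brake on G protein signalling, by 1.10 ± 0.31 (adjusted p = 0.0479). All 4 had non-overlapping groups, and each lost the call when sham array 1 or omeprazole array 2 or 4 was left out, with adjusted p up to 0.0981 for Il1b and 0.211 for Klf6. Rgs2 lost it in all 8 fits without 1 array, and Ier5 and Klf6 in 6 of them. Ier5, Klf6 and Rgs2 also lost it with spike-in scaling and with no filter on dim probes, with adjusted p of 0.0606 to 0.110. Klf6 and Rgs2 lost it with the authors' value table (limma adjusted p of 0.0576 and 0.0707). With normexp and quantile normalization Ier5 and Rgs2 lost it (0.0535 and 0.0522), and with the replicate block Klf6 did (0.0517).

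Of 34 MAP kinase, SRF and CREB genes that feed into AP-1, 29 were tested, with 19 higher and 10 lower in untreated rats against sham and a median of 0.13. The 3 with the smallest p were Braf, Mapk8ip3 and Mapk9, all with an adjusted p of 0.242. Braf, a kinase above ERK, was not well above background on any sham array. It rose in omeprazole-treated rats, to levels of -2.77, -2.78, -3.29 and -2.58 against -4.52, -3.82, -3.67 and -4.45 in sham rats, which was at least 1.85-fold higher (adjusted p = 0.0338). Braf was the 1 gene of this list called there, where 0.742% of all genes were called higher. The adjusted p was up to 0.131 without 1 array, 0.0580 with spike-in scaling and 0.0729 with no filter on dim probes. With normexp and quantile normalization the change of Braf was 0.28 (log2, adjusted p = 0.148), smaller than that minimum fold. In untreated rats Braf was at least 1.74-fold higher than in sham rats. Its adjusted p was 0.0156 without untreated array 1, where 11.6% of all genes passed and 5.76% rose. Mapk8ip3, a scaffold for JNK, was not well above background on any untreated array. It rose in omeprazole-treated against untreated rats, to -3.47, -2.56, -2.61 and -2.56 against -4.29, -4.78, -4.86 and -5.16, at least 3.29-fold higher (adjusted p = 0.00693, and 0.00556 to 0.0321 without 1 array). Mapk8ip3 was the 1 gene of this list called there, where 0.348% of all genes were called higher. The adjusted p was 0.0721 with normexp and quantile normalization and 0.0886 with spike-in scaling. Against sham, untreated rats were at least 2.31-fold lower for it, measured well above background on 1 sham array, with an adjusted p of 0.0374 without untreated array 1. Mapk9, which encodes the kinase JNK2, differed by 1.29 ± 0.40 between untreated and sham rats, with an adjusted p of 0.0502 without untreated array 1. It was well above background on all 4 untreated arrays and on 1 of 4 sham arrays.

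Of 23 genes known as AP-1 targets 14 were tested and 0 passed in any comparison by limma. For untreated rats against sham the median change was 0.56, with 11 genes above 0 and 3 below, where 38.1% of all genes were higher. Of the 14 tested, 4 had an unadjusted p below 0.05, against 18.2% of all genes. Plaur, the urokinase receptor, had levels of -2.21, -0.53, -1.45 and -0.32 in untreated rats and -2.98, -2.60, -2.50 and -1.73 in sham rats, a change of 1.33 ± 0.42. Cd44, an adhesion receptor, differed by 0.99 ± 0.35, and Lgals3, a lectin, by 1.26 ± 0.45. All 3 had an adjusted p of 0.242. Without untreated array 1 the 3 rose, with adjusted p of 0.0202, 0.0198 and 0.0191, where 11.6% of all genes passed and 5.76% rose.

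Among the members, levels across the 20 arrays went together most for Junb with Ier2 (Pearson r = 0.88), Ier2 with Gadd45b (0.84) and Junb with Gadd45b (0.83). Jun correlated at 0.77 with Junb and Gadd45b and at 0.72 with Atf3. Jun and Fos correlated at 0.21, and Jun and Egr1 at 0.12. Within groups, after each group's mean was taken out, Jun and Junb correlated at 0.73 and Ier2 and Gadd45b at 0.91. These values describe arrays that share cell makeup, signal and slide, and they are given without a test.

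Over 10909 genes and the same 20 arrays, the genes most like Jun were Rhob (r = 0.91), Eno1, a glycolytic enzyme (0.89), Zeb2, a zinc finger repressor (0.89), Hipk3, a nuclear kinase (0.89, well above background on 9 arrays), and Ro60, an RNA-binding protein (0.88). Rhob ranged from -0.99 to -0.06 on omeprazole arrays, -0.89 to -0.04 and -0.91 to -0.29 at the lower and higher STW5 dose, -1.89 to 1.24 in untreated rats and -2.59 to -1.38 in sham rats. As for Jun, its highest untreated level was on array 2 and its lowest on array 1. The genes most like the mean of the 9 members were St3gal4, a sialyltransferase (0.94), Ubtd1 (0.94), Tlr2, a receptor for bacterial lipoproteins (0.93), Slc16a3, a lactate transporter (0.92), and Kif1b, a kinesin (0.92, well above background on 12 arrays).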

How the data were processed

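RNA of 20 blood samples was labelled with Cy3 and hybridised to 1-colour Agilent rat arrays, per the labels. Agilent Feature Extraction 10.7.3.1 gave the intensity of each spot in the deposited scanner files, background-subtracted and detrended but not normalized between arrays, per the file headers, with flags for spots well above background. The value table that the authors deposited gives each spot a ratio, the processed intensity over the array's median, as found against the scanner files (12 columns follow their own array, 8 the other STW5 dose).

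Spots of a probe were averaged without outlier flags, log2 intensity was centred on the array's 75th percentile, and the test took the 17236 probes that passed well above background on 4 arrays or more, the brightest per gene. limma 3.58.1 in R 4.3.3 (lmFit, eBayes) fitted 5 group means to 20 arrays. Tests were two-sided, with Benjamini-Hochberg adjustment over 15232 genes, or over 17236 probes where so named, and a threshold of 0.05. Figures used matplotlib. The fit was tested on simulated data. The number of arrays limits precision: log2 changes had a median standard error of 0.35 over genes.

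The members and lists were chosen with earlier results of these data known. Every member was named, with the 3 genes of smallest p per list for untreated against sham, those past the threshold, and the 5 most like Jun and the members' mean. Same-numbered arrays correlated, after group means were removed, at 0.188 to 0.488 in STW5 2 ml/kg against untreated, and only there were all 4 pairs over 0.1, so the replicate number was used as a pairing there. That pairing comes from the data, not from the labels. Alternatives were normexp with quantile normalization, quantile normalization, spike-in scaling, other filters, the mean of probes, the value table, replicate blocks, 8 arrays only, exchanged doses and single arrays left out. Centring on the median of tested probes, and leaving out untreated arrays 1 and 2 together, were added after seeing the data.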

Additional observations from a re-analysis of the deposited data

Results flagged for a closer look

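Each gene's 4 levels in each group were examined for 1 array far from the other 3, in 55 groups of 4. Chance marks about 1 in 20 such groups, and 3 were marked. Egr1, by its brighter probe, was at -0.47 on untreated array 2, where the other untreated arrays lay between -3.31 and -3.25. Junb was at 1.94 on sham array 1, where the other sham arrays lay between 2.27 and 2.34. The dimmer Fosl2 probe was at -1.18 on sham array 4, where the other sham arrays lay between -2.87 and -2.65.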

How the results depend on the processing

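Counts of members past the threshold moved as follows. For untreated rats against sham the count was 0, and 0 to 4 without 1 array. It was 4 without untreated array 1 (11.6% of all genes passed) and 5 without untreated arrays 1 and 2 (28.5%). For omeprazole against untreated it was 0, and 0 to 1 without 1 array. The mean of probes gave 1 (4.12% of all genes passed), and so did leaving out untreated arrays 1 and 2 (13.2%). For STW5 2 ml/kg against untreated it was 0, and 0 to 1 without 1 array. Spike-in scaling gave 1 (12.6% of all genes passed), and so did leaving out untreated arrays 1 and 2 (29.7%). Between the STW5 doses it was 0, and 0 to 1 without 1 array. Spike-in scaling gave 4, where 7718 of 15232 genes passed. It was 1 with no filter and 1 with the replicate block (Jund, limma adjusted p = 0.047), with the all-gene counts of both given below. For omeprazole against sham it was 1, 0 with no filter and with the mean of probes, and 0 to 1 without 1 array. The replicate block gave 2, and only the 8 arrays compared gave 5. Over the alternatives other than leaving out 1 array, 313 to 1479 genes passed in that comparison, against 722 in the main fit. The share of all genes under each of those settings is not given here. These counts of members therefore cannot be set against it. The counts of both STW5 doses against sham and of STW5 0.5 ml/kg against untreated were 0 under every alternative run. The replicate block changed no other count of members. The cause of these moves was not tested.

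Over all genes, untreated against sham gave 1 gene, 1773 without untreated array 1 and 4346 without arrays 1 and 2. STW5 2 ml/kg against untreated gave 0 genes, 515 with the replicate block, 1918 with spike-in scaling, 3016 without untreated array 1 and 1038 without array 3 at that dose. STW5 2 against 0.5 ml/kg gave 0 genes, 529 with the replicate block, 7718 with spike-in scaling, 5369 with no filter and up to 806 without 1 array. Omeprazole against sham gave 722, 313 to 1479 over the alternatives other than leaving out 1 array, and omeprazole against untreated 637, 383 to 2006. STW5 0.5 ml/kg against sham gave 0, and 40 with only the 8 arrays compared.

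Changes that turned direction were few and mostly of Jund and Fos, whose values follow. With spike-in scaling Jund was 0.25, 0.34, 0.36 and -0.020 for untreated, omeprazole, STW5 0.5 ml/kg and STW5 2 ml/kg against sham, -0.27 for STW5 2 ml/kg against untreated and -0.38 between the doses, where Jun was -0.997, and Ier2 was -0.093 for STW5 2 ml/kg against sham. With normexp and quantile normalization Jund was 0.013 for untreated against sham, and with the mean of probes Fosl2 was -0.053. Egr1 there ran from -0.37 (without untreated array 2) to 0.58 without 1 array, and was -0.37 without arrays 1 and 2. With the value table, whose STW5 columns follow the other dose, Jun, Jund and Fos were -0.11, -0.72 and 1.49 between the doses, Jund and Fos were -0.38 and 1.30 for STW5 2 ml/kg and 0.34 and -0.20 for STW5 0.5 ml/kg against sham, and Jund was -0.10 for STW5 2 ml/kg against untreated. With the doses exchanged these were -0.26, -0.87 and 1.34, -0.51 and 1.17, 0.37 and -0.18, and -0.17. Fos ran from -0.59 to 0.16 for STW5 2 ml/kg against sham without 1 array, and was 0.10 and 0.16 without array 2 or 4 of that dose.

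Untreated against sham had a median over all genes of -0.19, and of 0.40 with spike-in scaling. Of 1216 values over 65 changes of named genes, 623 and, without 1 array, 466 kept direction and side of the threshold. Precision is limited by 4 arrays a group. Fos, Atf3 and Egr1 lie near background on some arrays, where a level is uncertain and a fold is compressed. Among the list genes this also holds for Maf, Jdp2, Id1, Braf, Mapk8ip3, Mapk9 and Plaur.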
